A study of Mus musculus with 8 samples.

Results

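Immediate early genes were measured in hearts of mice overexpressing PKR2 and of wild-type (WT) mice. The genes were chosen by name: Fos, Fosb, Jun, Junb, Egr1, Atf3, Nr4a1, Dusp1, Ier2 and Btg2. Every non-control probe whose gene name in the scanner files equals one of these was taken, which gave 14 probes of 10 genes among 41174 probes on the array. The mice were 4 male PKR2-overexpressing mice aged 12 weeks, set against 4 male WT mice aged 12 weeks, with 1 heart on 1 single-colour array each. The name PKR2 was taken to mean prokineticin receptor 2, which binds secreted prokineticins and signals through G proteins. The promoter that drives the transgene, the strain, the number of transgenic lines, and how and when the hearts were collected are not given in the sources used here. None of the 10 genes passed the test for a difference between PKR2 and WT hearts, and Fosb, Atf3, Egr1, Fos and 1 of 2 Ier2 probes varied more from heart to heart than most probes did. That Ier2 probe was not well above background in WT 4, its lowest heart. Fos was not well above background in PKR2 2 and WT 2.

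Immediate early genes are transcribed within minutes of a stimulus from factors that the cell already holds, without new protein synthesis. Fos, Fosb, Jun and Junb encode subunits of the dimeric transcription factor AP-1, Egr1, Atf3 and Nr4a1 encode other transcription factors, and Dusp1, Btg2 and Ier2 encode products that act on signalling and on growth. In heart they are known to respond to stretch, adrenergic drive, ischaemia and the handling of tissue. Receptors coupled to G proteins reach them through calcium, cyclic AMP and MAP kinases, whose nuclear targets include CREB at cyclic AMP response elements and serum response factor at CArG boxes.

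Because cyclic AMP response elements are a known entry point to these genes, the 250 bases upstream of the annotated start were read for the 8 members found in the promoter table (RefSeq, GRCm38.p6). Egr1 and Ier2 were not matched. The core of the element, TGACG or CGTCA on the reverse strand, lay in 7 of the 8 windows, against 17.8% of 32851 windows of the same length in the table. Jun was the member without it. The member windows were also richer in G and C than the median window, as given below. The part of base content in this contrast was not tested. Atf3 and Btg2 (probe 1) followed Fos from heart to heart, in the values given later, more closely than Junb, Dusp1 and Nr4a1 did. That order did not hold without the hearts PKR2 1 and PKR2 2, where Junb had r = 0.46, against 0.29 for Atf3 and 0.39 for Btg2. Fosb, which also held the core, at -60 to -56, had r = 0.56 over the 8 hearts and 0.72 without PKR2 1 and PKR2 2. A link between the core and these correlations was not tested. The windows of Fos, Atf3, Btg2, Junb, Dusp1 and Nr4a1 are shown, and those of Fosb and Jun are not. Each runs 5′ to 3′ on the gene's own strand and ends at the base before the start, with capitals marking TGACG or CGTCA:

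Fos: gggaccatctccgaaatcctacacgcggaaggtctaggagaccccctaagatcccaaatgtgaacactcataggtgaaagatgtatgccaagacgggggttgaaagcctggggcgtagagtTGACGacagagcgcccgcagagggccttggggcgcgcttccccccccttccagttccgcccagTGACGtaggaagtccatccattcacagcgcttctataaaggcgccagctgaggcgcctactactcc
Atf3: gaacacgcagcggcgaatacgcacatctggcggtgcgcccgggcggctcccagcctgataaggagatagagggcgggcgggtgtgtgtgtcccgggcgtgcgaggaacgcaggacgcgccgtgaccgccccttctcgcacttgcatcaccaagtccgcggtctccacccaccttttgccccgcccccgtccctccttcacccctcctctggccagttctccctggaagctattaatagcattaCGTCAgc
Btg2: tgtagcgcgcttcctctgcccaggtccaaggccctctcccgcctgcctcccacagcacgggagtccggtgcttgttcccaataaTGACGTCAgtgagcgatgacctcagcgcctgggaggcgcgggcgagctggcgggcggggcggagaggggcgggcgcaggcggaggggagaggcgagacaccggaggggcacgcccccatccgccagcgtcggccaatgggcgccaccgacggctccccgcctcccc
Junb: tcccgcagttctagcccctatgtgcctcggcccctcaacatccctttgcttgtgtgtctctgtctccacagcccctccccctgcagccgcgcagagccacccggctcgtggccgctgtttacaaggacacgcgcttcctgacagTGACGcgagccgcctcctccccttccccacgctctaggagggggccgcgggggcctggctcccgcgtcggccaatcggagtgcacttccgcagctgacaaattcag
Dusp1: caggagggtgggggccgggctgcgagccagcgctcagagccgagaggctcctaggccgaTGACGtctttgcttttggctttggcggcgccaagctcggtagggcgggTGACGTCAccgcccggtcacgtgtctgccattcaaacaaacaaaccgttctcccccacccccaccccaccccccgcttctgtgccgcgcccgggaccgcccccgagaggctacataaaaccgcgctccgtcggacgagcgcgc
Nr4a1: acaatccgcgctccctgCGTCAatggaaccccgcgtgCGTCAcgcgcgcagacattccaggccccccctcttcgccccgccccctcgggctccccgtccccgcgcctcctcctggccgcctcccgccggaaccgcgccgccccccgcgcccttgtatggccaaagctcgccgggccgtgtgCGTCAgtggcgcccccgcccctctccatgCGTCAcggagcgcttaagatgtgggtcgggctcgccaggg

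These windows lay at chr12:85473640-85473889 on the plus strand for Fos, chr1:191183334-191183583 on the minus strand for Atf3 and chr1:134079156-134079405 on the minus strand for Btg2. Those of Junb, Dusp1 and Nr4a1 lay at chr8:84978749-84978998 and chr17:26508473-26508722 on the minus strand and chr15:101266596-101266845 on the plus strand. The whole palindrome TGACGTCA, which holds the core on both strands, was found in Dusp1 at bases -143 to -136 and in Btg2 at bases -166 to -159, and in 1.55% of all windows. Fos held the core at -129 to -125 and at -66 to -62 and was the member with a TATAAA box, at -33 to -28. Nr4a1 held the core 4 times and Atf3 held it once, at -7 to -3. No member window held a CArG box (1.47% of all windows) or an AP-1 site, TGACTCA or TGAGTCA (4.46%). The member windows were 58.4% to 74.4% G and C, against a median of 52.4% over all windows. A GC box, GGGCGG or CCGCCC, likewise lay in 7 of the 8 member windows, against 32.7% of all windows. A match or its absence describes letters in this window only. Bases farther upstream and inexact matches were not read, and Egr1 and Ier2 had no window.

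Each array held 43379 non-control spots. Levels below are the log2 processed signal minus the 75th percentile of the same array, so a level of 0 is that percentile, and differences are PKR2 minus WT. Levels of different probes cannot be set against each other. The 75th percentile of signal ran from 87.5 to 770 on the PKR2 arrays and from 40.9 to 687 on the WT arrays. The scanner read PKR2 4, WT 2 and WT 4 over a narrower, low range only. Arrays correlated across probes at r of 0.970 to 0.991 within PKR2, 0.968 to 0.986 within WT and 0.963 to 0.988 between groups. The Prokr2 probe was well above background on 0 of 4 PKR2 arrays and 0 of 4 WT arrays, so the overexpression was not seen with it. Whether the transgene's transcript holds this probe's target was not tested. All 12 cardiomyocyte markers were well above background on all 8 arrays. In whole hearts, fewer cells of a type and less RNA per cell cannot be told apart.

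All 14 member probes passed the filter on dim probes, which 22715 probes of the array passed. Fos, an AP-1 subunit, is read by a probe at chr12:86366053-86366112 on the plus strand (mm8) that was spotted 10 times on each array. It stood at -2.47, -4.00, -3.66 and -3.42 in PKR2 hearts 1 to 4, against -2.82, -3.16, -3.95 and -3.22 in WT hearts 1 to 4. Both the highest heart (PKR2 1) and the lowest (PKR2 2) overexpressed PKR2, and the WT values lay between them. Fos was dim: it was well above background in 3 of 4 PKR2 hearts and 3 of 4 WT hearts, missing in PKR2 2 (4 of 10 spots) and WT 2 (3 of 10 spots). Its mean was -3.39 ± 0.66 in PKR2 and -3.29 ± 0.47 in WT (SD, n = 4 each), a difference of -0.10 (SE 0.34, 95% interval -0.87 to 0.66).

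Fosb encodes a close relative of Fos that also pairs with Jun proteins (probe at chr7:18461650-18461709, minus strand, mm8). It stood at -1.003, -1.37, -2.76 and -1.92 in PKR2 hearts, against -1.65, -0.82, -2.52 and -1.86 in WT hearts. Heart 3 was the lowest of each group, and these 2 hearts shared slide 5. The difference was -0.051 (SE 0.43, 95% interval -1.01 to 0.90).

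Jun, the partner that gives AP-1 its main DNA-binding dimer with Fos, varied little (probe at chr4:94541191-94541250, minus strand, mm8, 10 spots an array). Its levels were 1.45, 1.34, 1.37 and 1.68 in PKR2 hearts, against 1.39, 1.61, 1.55 and 1.76 in WT hearts. Its lowest and highest hearts differed 1.34-fold, and the groups overlapped. The difference was -0.12 (SE 0.15, 95% interval -0.47 to 0.23).

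Junb encodes a subunit that can restrain Jun, and it was read by 2 probes that share 22 bases (chr8:87867087-87867146 and chr8:87867049-87867108, minus strand, mm8). At probe 1 the PKR2 hearts stood at 3.19, 3.35, 3.18 and 3.502, against 3.33, 3.62, 3.23 and 3.80 in WT hearts. At probe 2 they stood at 2.81, 3.22, 3.07 and 3.28, against 3.15, 3.81, 3.53 and 3.497 in WT hearts. WT 2 and WT 4 were high at probe 1 and PKR2 1 was the lowest heart at probe 2, where PKR2 2 and PKR2 4 lay above WT 1. Probe 2 had the member list's lowest difference, -0.40 (SE 0.19, 95% interval -0.82 to 0.016), and probe 1 had -0.19 (SE 0.18, 95% interval -0.58 to 0.20). The probe 2 difference was below 0 in all 21 alternatives that tested it, from -0.52 (without WT 1) to -0.039 (normexp). With arrays at position 4 only, where WT 1 is the single WT heart, it was -0.052. Its smallest limma adjusted p in these alternatives was 0.388. In the main fit the limma adjusted p was 0.9997 at both probes, and the probes correlated at r = 0.66 over the 8 hearts.

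Egr1 encodes a zinc-finger transcription factor that responds to serum response factor and MAP kinases. It stood at 1.63, -0.065, 0.57 and 1.27 in PKR2 hearts, against 1.32, 0.76, 0.18 and 1.42 in WT hearts. PKR2 1 was the highest heart and PKR2 2 the lowest, as for Fos, and they differed 3.23-fold. The group means were 0.85 ± 0.75 in PKR2 and 0.92 ± 0.57 in WT (SD, n = 4 each), a difference of -0.068 (SE 0.39, 95% interval -0.95 to 0.81).

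Atf3, a stress-responsive factor of the ATF and CREB family, was read at chr1:192871283-192871342 (minus strand, mm8). It stood at -0.18, -2.01, -0.096 and -0.63 in PKR2 hearts, against -0.23, -1.17, -1.09 and -0.34 in WT hearts. PKR2 2 was the lowest of the 8 hearts and the 8 values spanned 3.76-fold. The difference was -0.023 (SE 0.42, 95% interval -0.96 to 0.91). On slides 5 and 6, the only slides with both groups, PKR2 minus WT was 0.99 and -0.29, each a difference of 1 heart against 1.

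Nr4a1 encodes the orphan nuclear receptor Nur77 (probe at chr15:101102674-101102733, plus strand, mm8). Its levels were 4.06, 4.35, 4.88 and 3.67 in PKR2 hearts, against 4.19, 3.58, 4.05 and 3.76 in WT hearts. PKR2 3 was the highest heart, and PKR2 4 lay below 3 of the 4 WT hearts. Its mean was 4.24 ± 0.51 in PKR2 and 3.89 ± 0.28 in WT (SD, n = 4 each). The fold was 1.27, a log2 difference of 0.35 (SE 0.26, 95% interval -0.24 to 0.93), the highest of the 14 probes, and it was 0.83 on slide 5 and -0.086 on slide 6. It was 0.13 without PKR2 3 and 0.54 without PKR2 4, 0.70 with normexp and 0.050 with arrays at position 4 only.

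Dusp1, a phosphatase that switches MAP kinases off, varied least of the members (probe at chr17:26233451-26233508, minus strand, mm8). It stood at 2.86, 2.82, 2.63 and 2.74 in PKR2 hearts, against 2.64, 2.59, 2.88 and 2.67 in WT hearts. The 8 hearts lay within 1.22-fold of each other, and the difference was 0.068 (SE 0.14, 95% interval -0.25 to 0.39).

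Btg2, an antiproliferative gene that p53 and growth signals induce, was read by 3 probes (chr1:135891928-135891987, chr1:135893750-135893809 and chr1:135894015-135894074, minus strand, mm8). Probe 1 stood at 1.99, 1.09, 2.05 and 1.97 in PKR2 hearts, against 2.20, 1.39, 1.29 and 1.498 in WT hearts. PKR2 2 was the lowest of the 8 hearts, and the other PKR2 hearts lay close together. Probe 2 ran from -0.010 to 0.34 in PKR2 hearts and from -0.45 to 0.35 in WT hearts, and probe 3 from -1.28 to -0.84 in PKR2 hearts and from -1.47 to -0.86 in WT hearts. The differences were 0.18 (SE 0.27) at probe 1, 0.091 (SE 0.20) at probe 2 and 0.19 (SE 0.18) at probe 3. At probe 1 PKR2 minus WT was 0.75 on slide 5 and 0.48 on slide 6, and 0.61 (SE 0.21, limma adjusted p 0.697) with slide as a block. Without a block, leaving out each heart in turn gave 0.083 (without WT 3) to 0.41 (without PKR2 2). The probes did not follow each other alike: probes 1 and 3 correlated at r = 0.77 over the 8 hearts, and probes 1 and 2 at r = -0.0097.

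Ier2, a nuclear protein induced with the AP-1 genes, was read by 2 probes (chr8:87549656-87549690 and chr8:87549829-87549887, minus strand, mm8). Probe 1 stood at 1.75, 1.08, 1.097 and 1.34 in PKR2 hearts, against 1.55, 1.01, 0.73 and 1.12 in WT hearts, and its difference was 0.21 (SE 0.22, 95% interval -0.28 to 0.71). PKR2 1 and WT 1 were high and WT 3 was low at this probe. Probe 2 was dim and stood at -3.12, -3.20, -3.39 and -3.81 in PKR2 hearts, against -2.99, -2.57, -2.69 and -5.52 in WT hearts. WT 4 was not well above background at probe 2, and its difference of 0.059 (SE 0.58) rested on that heart: it was -0.63 (SE 0.21, limma adjusted p 0.9999) without it. The 2 probes correlated at r = -0.050 over the 8 hearts.

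**Figure D1:**
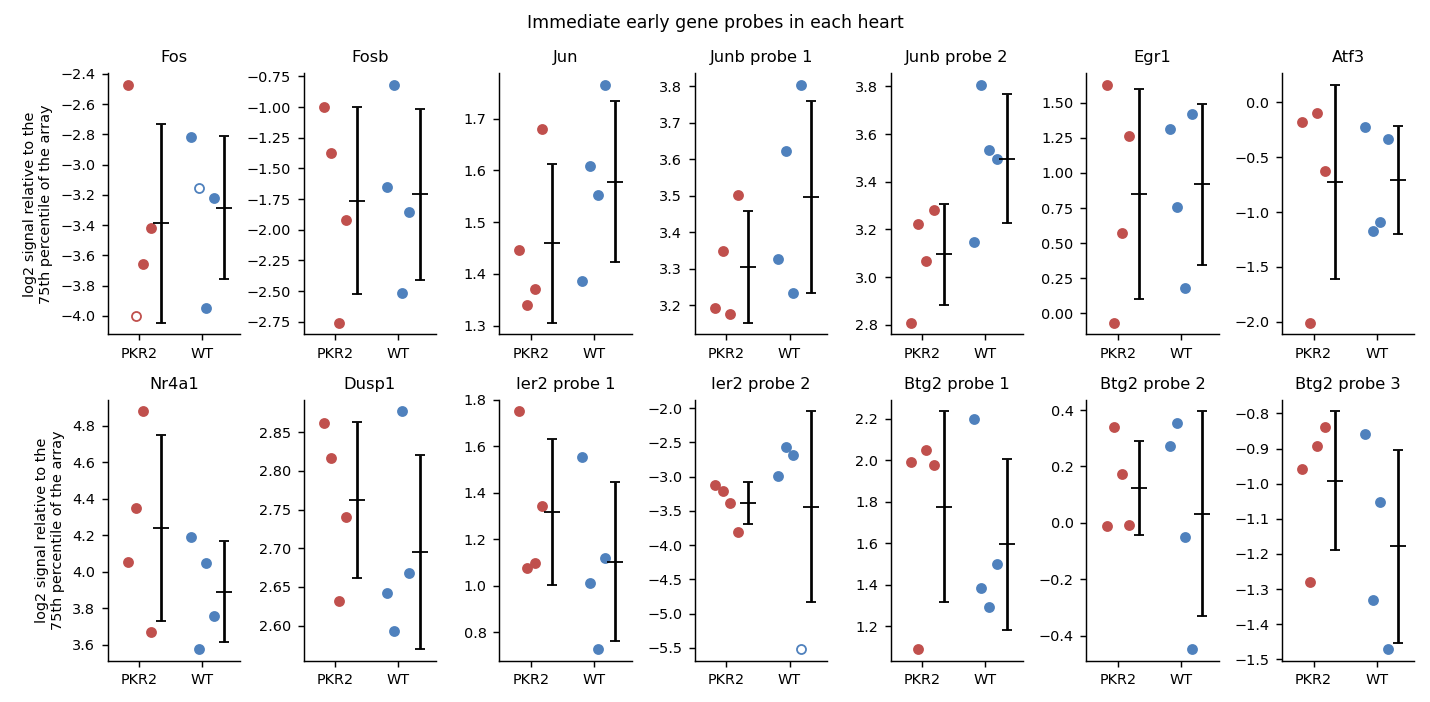
Log2 level of each of the 14 member probes relative to the 75th percentile of its array, with 1 point per heart and a bar at each group's mean. PKR2 and WT points overlap in every panel, and Fos, Fosb, Egr1 and Atf3 spread more widely than Jun and Dusp1.

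The comparison of PKR2 with WT hearts thus gave no call among the members. 7 probes had a higher mean in PKR2 and 7 a lower one, and 54.1% of all tested probes were higher. 0 of 14 member probes passed a limma adjusted p of 0.05, and over all tested probes the share called was 0.0%. At an unadjusted p under 0.05 the count was 0 of 14 member probes, against 2.58% of all tested probes (1.39% higher and 1.19% lower in PKR2). No member's groups were free of overlap, against 1.83% of all tested probes (1.06% higher and 0.77% lower in PKR2). The median member difference was 0.018, beside 0.019 over all tested probes. These data do not show equality: the 95% interval of a tested probe reached a median of 0.48 to either side, and the intervals of Fos, Fosb, Egr1 and Atf3 were wider.

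**Figure D2:**
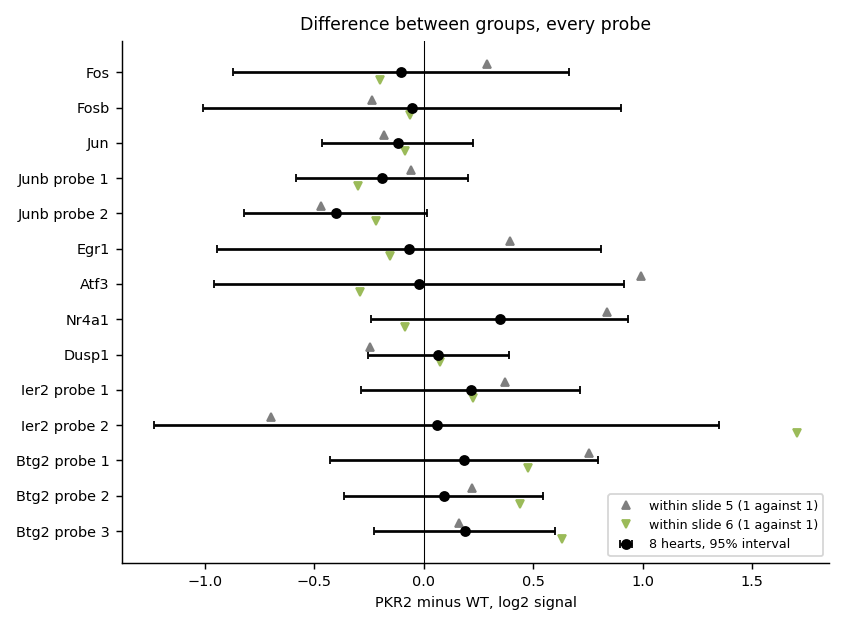
Difference in log2 level, PKR2 minus WT, of each member probe with its 95% interval from limma, beside the differences on slide 5 and slide 6 alone. All intervals include 0, and Junb probe 2 reaches 0.016 at its upper end.

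The members differed in how far hearts of the same group spread. The SD within groups was compared with that of all 22715 tested probes, which were not matched for level. Ier2 probe 2, with its dim WT 4, lay at percentile 98.5, Fosb at 95.1, Atf3 at 94.6, Egr1 at 93.1 and Fos at 88.4. Dusp1 lay at percentile 2.64 and Jun at 8.62, so the list held both some of the more variable and some of the steadier probes. In all, 8 of 14 member probes had an SD above the overall median, and the median SD was 0.37 over the members and 0.31 over all tested probes.

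Replicate spots allowed the error between spots of an array to be set beside the spread of hearts for 2 genes. With 1 array per heart, the spread of hearts also holds any error of a whole array, which spots do not show. The SD of Fos over the spots of an array ran from 0.064 in PKR2 1 to 0.33 in PKR2 2 within the PKR2 group and from 0.10 to 0.19 within the WT group. The error of an array's mean was at most 0.11, and the SD between hearts was 0.66 in PKR2 and 0.47 in WT. For Jun the SD over spots ran from 0.068 to 0.089 in PKR2 hearts and from 0.036 to 0.068 in WT hearts. Its SD between hearts was 0.15 in PKR2 and 0.16 in WT.

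**Figure D3:**
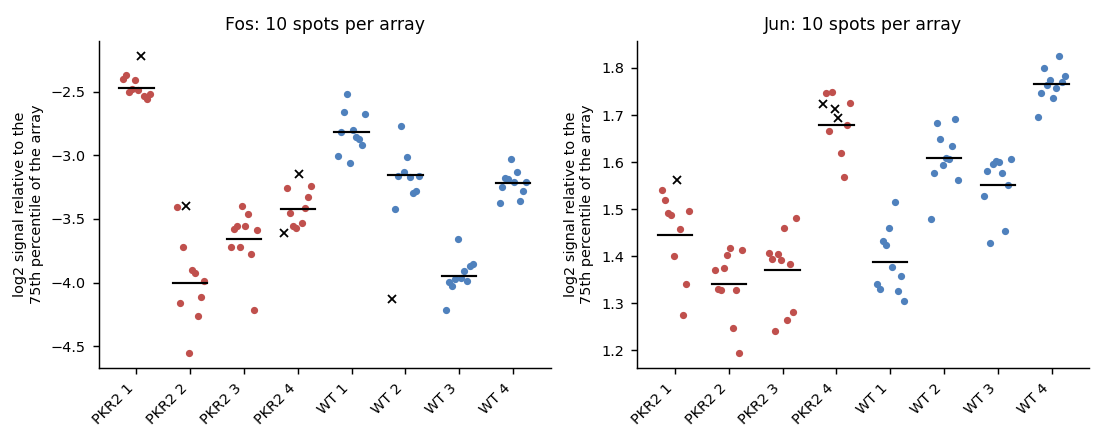
Log2 level of the single replicate spots of Fos and Jun in each heart, with a bar at the heart's mean. Fos spots scatter most in PKR2 2, where Fos was dimmest, at -4.00, with an SD of 0.33 over the spots.

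Each gene was next centred on its mean over the 8 hearts, with the brightest probe of each gene, to see whether 1 heart was high or low throughout. PKR2 1 was highest for 3 of the 10 genes and lowest for none, with a mean of 0.36. PKR2 2 was lowest for 5 of the 10 genes and highest for none, with a mean of -0.31. PKR2 3 and PKR2 4 averaged -0.043 and 0.051. The WT hearts averaged 0.22, -0.029, -0.33 and 0.091 from WT 1 to WT 4, so each group held a high and a low heart.

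Markers of other cells also differed among hearts. The 3 of 8 granulocyte markers that passed the filter (S100a8, S100a9, Mpo) scored, as a mean of centred levels, from -1.04 to 1.6 in PKR2 hearts and from -1.23 to 0.57 in WT hearts, with PKR2 2 highest. Their defining marker Ly6g did not pass. The 5 of 6 erythroid markers that passed scored from -1.14 to 1.40 in PKR2 hearts, with PKR2 2 highest, and from -0.31 to 0.36 in WT hearts. The 10 macrophage markers scored from -0.27 to 0.44 in PKR2 hearts, again highest in PKR2 2, and from -0.17 to 0.40 in WT hearts. The 13 of 15 adipocyte markers that passed scored from -1.78 to 0.38 in PKR2 hearts and from -0.19 to 1.16 in WT hearts. Of these, 12 had a lower mean in PKR2, with a median difference of -1.62 and 0 called. At an unadjusted p under 0.05 the count was 8 of 13, against 2.58% of all tested probes. The 10 endothelial markers scored 0.15, -0.094, -0.18 and 0.12 in PKR2 hearts 1 to 4, against 0.14, -0.14, -0.23 and 0.24 in WT hearts 1 to 4, and the hearts that were high in early genes (PKR2 1, WT 1) or low in them (PKR2 2, WT 3) lay on the same side of 0 here. The 8 fibroblast markers scored -0.22, 0.21, 0.019 and 0.0025 in PKR2 hearts, against -0.27, 0.19, 0.040 and 0.040 in WT hearts, so PKR2 1 and WT 1 were lowest. PKR2 1, the heart highest in early genes, and PKR2 2, the heart lowest for the most of them, had the lowest adipocyte scores. The part of these cells in the levels of the early genes was not tested.

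**Figure D4:**
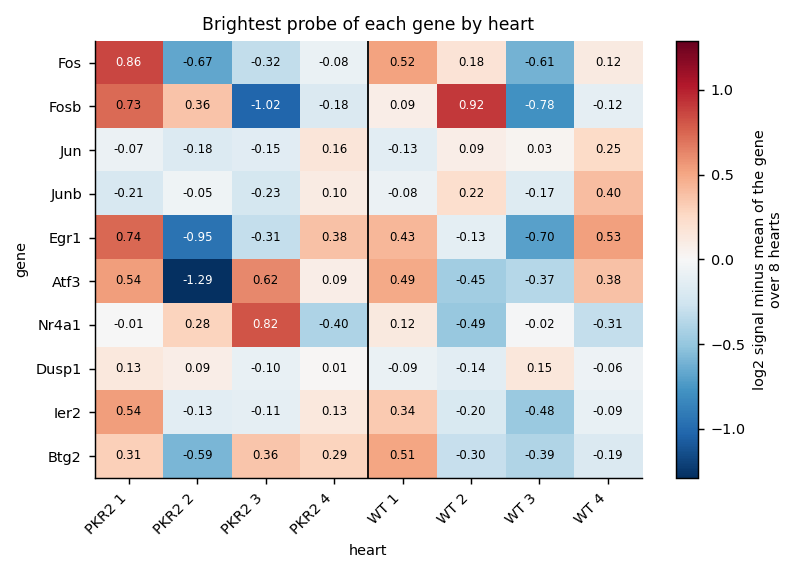
Level of each member gene in each heart minus the gene's mean over the 8 hearts, on the log2 scale, with PKR2 hearts to the left of WT hearts. PKR2 1 and WT 1 average 0.36 and 0.22, and PKR2 2 and WT 3 average -0.31 and -0.33.

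Whether the early genes followed Fos from heart to heart was measured over the 8 hearts for 9 genes, each by its brightest probe. The p-values were adjusted over the correlations of Fos with all 13050 other genes. Egr1 followed it most closely, with Pearson r = 0.88 (exact permutation p = 0.00439, adjusted p = 0.181) and Spearman rho = 0.88 (exact permutation p = 0.00724). Its r was 0.88 within groups and 0.78 without PKR2 1 and PKR2 2, the hearts farthest from the median of Fos. Ier2 probe 1 had r = 0.83 (exact permutation p = 0.0123, adjusted p = 0.181), rho = 0.69 (exact permutation p = 0.0694) and r = 0.78 without those hearts. Neither Egr1 nor Ier2 probe 1 passed the adjusted threshold. Ier2 probe 2, which did not follow probe 1 (r = -0.050), was not set against Fos. With normexp background correction, another way to remove background, the r of Egr1 was 0.31 and that of Ier2 was -0.41. Fosb then followed Fos most closely, at 0.85. Normexp adds a constant, the offset, which lay near Fos on the low-range arrays PKR2 4, WT 2 and WT 4. There the offset alone gave a level of -1.49, -0.92 and -1.76, and Fos stood at -1.18, -0.70 and -1.35. The part of the offset in these r was not tested.

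Atf3, Btg2 and Fosb were intermediate. Atf3 had r = 0.63 (exact permutation p = 0.0931, rho = 0.48) and Btg2 probe 1 had r = 0.61 (exact permutation p = 0.108, rho = 0.62). Without PKR2 1 and PKR2 2, which mark the ends of the range of Fos, their r was 0.29 and 0.39, so its size rested on those hearts. With any 1 heart left out it ran from 0.44 to 0.81 for Atf3 and from 0.46 to 0.77 for Btg2. Fosb had r = 0.56 (exact permutation p = 0.154, rho = 0.52), and 0.72 without PKR2 1 and PKR2 2. Btg2 probes 2 and 3 were not set against Fos, and they correlated with probe 1 at r = -0.0097 and 0.77. Junb (r = 0.082), Jun (r = 0.079), Dusp1 (r = -0.20) and Nr4a1 (r = -0.30) did not follow Fos, with exact permutation p of 0.847, 0.849, 0.633 and 0.475 and rho of 0.048, 0.29, -0.26 and -0.29. Without PKR2 1 and PKR2 2 their r was 0.46, -0.0052, -0.70 and -0.30.

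Correlation with Fos was common on these arrays. The share of all other genes called at an adjusted p under 0.05 was 0.0%, but 23.9% had an unadjusted p under 0.05 and 25.1% had r over 0.5. An r at least as high as that of Egr1 was found for 0.812% of genes, as that of Ier2 for 2.51%, as that of Atf3 for 16.4%, as that of Btg2 for 17.5% and as that of Fosb for 21.2%. The arrays of one scan range or one slide were fewer than 6, so no r within a batch was computed. Arrays share the scaling and the dim end of the scanner's range, where Fos lay. With normexp background correction the r of Atf3 with Fos was 0.34 and that of Btg2 was -0.18.

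**Figure D5:**
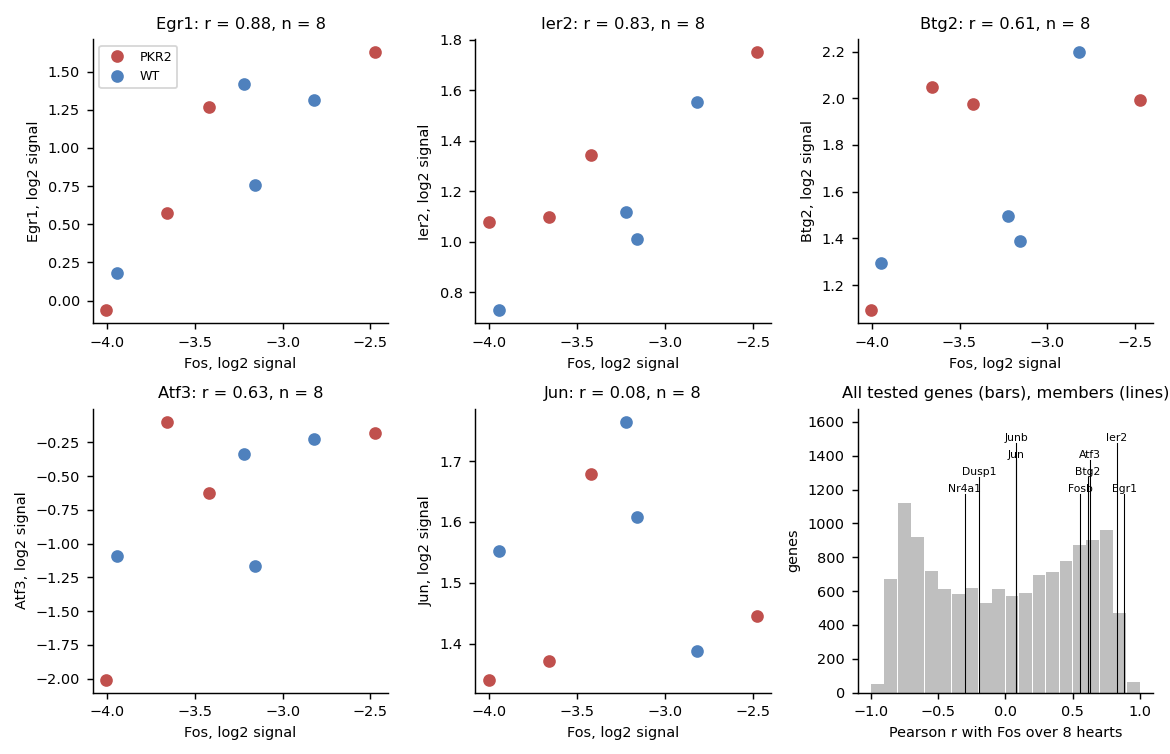
Log2 level of Egr1, Ier2 probe 1, Btg2 probe 1, Atf3 and Jun against Fos, with 1 point per heart. The histogram gives the Pearson r of all other genes with Fos, with a line at each member's r. Egr1 (r = 0.88) and Ier2 (r = 0.83) lie along a rising line and Jun (r = 0.079) does not, and many genes have a high or a low r.

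Member pairs were read by each gene's brightest probe, centred on group means and without a test. Fos and Ier2 had r = 0.93, Atf3 and Btg2 r = 0.88 and Egr1 and Ier2 r = 0.84. Jun and Junb followed each other at r = 0.76, and Jun and Nr4a1 ran opposite at r = -0.76. Against the mean of the other 9 members, Fos had r = 0.95, Egr1 0.91 and Ier2 0.90, and Nr4a1 had r = -0.37. Pairs of members thus ran from closely alike to opposite in these hearts.

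The 6 genes whose profile over the 8 hearts, centred on the group means, was most like the members' mean profile were Rassf7, Alkbh4, Ap2a1, Wdr90, Tbc1d31 and Tmem220. Each had r = 0.98 among 13041 genes, and their lowest r with any 1 heart left out was 0.965 to 0.973. Tmem220 was well above background in 5 of 8 hearts and the other 5 genes in all 8. None belongs to the list of other early genes described next. Over all genes, 28.6% had r over 0.5 with the members' profile, so these 6 are the end of a wide distribution.

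Other early response genes gave a similar picture between the groups. Of 50 listed genes, 44 passed the filter, 16 with a higher and 28 with a lower mean in PKR2, and 0 were called. Of all tested probes, 54.1% had a higher mean in PKR2. 1 of the 44 had an unadjusted p under 0.05, against 2.58% of all tested probes. 1 had groups without overlap, against 1.83% of all tested probes. The median difference of the 44 was -0.049, beside 0.019 over all tested probes. The gene of smallest p was Phlda1, a growth-factor-induced gene that can promote cell death, at 1.96 ± 0.096 in PKR2 and 2.29 ± 0.14 in WT (SD, n = 4 each). Its difference was -0.33 (SE 0.15, limma adjusted p 0.9997), and its groups did not overlap. Dusp4, a nuclear MAP kinase phosphatase, differed by -0.64 (SE 0.30), and Sik1, a cyclic AMP-induced kinase, by 0.50 (SE 0.30). Nfkbiz, a nuclear regulator of NF-kappaB, differed by 0.40 (SE 0.30). Ccn2 and Ccn1, secreted matrix proteins that respond to stretch, differed by 0.25 (SE 0.19) and 0.27 (SE 0.22). Across hearts 12 of the 44 had r over 0.5 with the members' mean profile and the median r was -0.22, beside 28.6% and a median of 0.023 over all genes. The r was positive for 20 of the 44 and ran from -0.94 to 0.95, so some ran closely opposite to the members.

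The pathway that leads to these genes was also measured. Of 30 listed MAP kinase, CREB, serum response factor and EGR regulators, 28 passed the filter, 17 higher and 11 lower in PKR2, with 0 called and a median difference of 0.035. Nab2, which represses EGR proteins, differed by -0.45 (SE 0.25). The ribosomal S6 kinases Rps6ka3 and Rps6ka2, which phosphorylate CREB and Fos, differed by 0.22 (SE 0.17) and 0.27 (SE 0.21).

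Hypoxia-response genes, all 15 of which passed, were higher in PKR2 for 8 and lower for 7, with 0 called and a median of 0.028. 1 of the 15 had an unadjusted p under 0.05, against 2.58% of all tested probes. It was Pfkfb3, a regulator of glycolysis that was picked after its values were seen, at -0.85 (SE 0.26, limma adjusted p 0.9997). That value is from the brightest tested of its 3 probes, and its groups overlapped. Of 9 heat-shock genes that passed, 2 were higher and 7 lower, with 0 called and a median of -0.072. An r over 0.5 with the members' profile was found for 1 of these 9, against 28.6% of all genes. It was found for 4 of the 15 hypoxia genes and 10 of the 28 pathway genes. The median r of the heat-shock genes was -0.61, beside 0.023 over all genes. The control genes Gapdh, Actb and Hprt differed by 0.18 (SE 0.17), -0.046 (SE 0.22) and 0.0022 (SE 0.30).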

How the data were processed

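Per the labels, Tri-Reagent was used to extract total RNA of 8 hearts, and Cy3 to label it. Per the file headers, Agilent Feature Extraction 9.5.1.1 (probe positions in mm8) flagged outlying spots, subtracted background and removed spatial trends. The deposited scanner values are spot intensity on a linear scale. The authors' deposited normalized values, also intensity, served as an alternative. Their column medians were 139 to 144. They were read as linear and uncentred, and how they were normalized is not given in the sources used here.

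The processed signal was taken to log2 minus each array's 75th percentile. Control spots and flagged spots were left out and spots of a probe averaged. A probe was tested if well above background on at least 3 of 4 arrays of a group (22715 probes), and 97 detected probes were left out for flags. Probes were named by accession (24375) or symbol (6301) through RefSeq GRCm38.p6, 10498 had no name, and members were taken by the file's own gene name. The brightest probe stood for a gene in correlations and lists. PKR2 was set against WT in limma 3.58.1 (R 4.3.3; data handled in the package data.table, version 1.17.8) with Benjamini-Hochberg adjustment over all tested probes. Exact permutation tests ran over 40320 orders. The fit was tested on simulated data. Motifs were searched on both strands in Python 3.11.15. The number of arrays limits the precision, and p-values measure the spread between these 8 hearts.

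The members and all lists were chosen with earlier results of these data known. Named are every member probe, the 6 other early and 3 pathway genes of smallest p, the 6 genes most like the members, and Gapdh, Actb and Hprt. One pathway gene is not reported here. Alternatives were normexp background correction (offset 50), quantile and median scaling, the deposited normalized values, other filters, 1 probe a gene, slide, position and scan range, trended variance, array weights, the adipocyte score and leaving out each array. Labels carry no replicate numbers that pair mice. No replicate block was fitted.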

Additional observations from a re-analysis of the deposited data

Results flagged for a closer look

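In 28 groups of 4 hearts (14 probes, each group), 2 values lay far from the rest of their group. The gap to the nearest heart, divided by the group's range, exceeded Dixon's 95% critical value for 4 samples, and chance flags about 1 in 20 groups. Btg2 probe 1 in PKR2 2 stood at 1.09, and the nearest PKR2 heart at 1.97 (ratio 0.923). Ier2 probe 2 in WT 4 stood at -5.52, not well above background, and the nearest WT heart at -2.99 (ratio 0.858).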

How the results depend on the processing

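No member probe was called in any of the 22 alternatives (smallest limma adjusted p 0.388, array weights). Over all tested probes 1 was called, Anks1, with probes above background on all 8 arrays, with slide as a random block, with trended robust variance and without PKR2 3, and 1, Fzd2, with arrays at position 4 only, where PKR2 is set against WT 1 alone. Leaving out each heart gave 0 to 1 such calls. The sign of small member differences was not stable, and the cause was not tested. Normexp moved the median of all probes to -0.12 and the share higher in PKR2 to 41.8%, and median scaling that share to 41.0%, against 54.1%.

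Normexp gave 0.061 for Egr1, 0.11 for Jun, 0.085 for Junb probe 1, -0.15 for Btg2 probe 3 and -0.76 for Ier2 probe 2. Ier2 probe 2 was also -0.0019 with median scaling and -0.028 with quantile normalization. With the authors' deposited values Fos was 0.023, Fosb 0.21, Btg2 probe 2 -0.0053 and Ier2 probe 2 -0.12. Under a fixed slide block (in effect slides 5 and 6) Fos was 0.044, Egr1 0.12, Atf3 0.35, Dusp1 -0.086 and Btg2 probes 1 to 3 0.61, 0.33 and 0.40, and as a random block Atf3 was 0.11. With scan range as a block Fosb was 0.033, Egr1 0.040 and Ier2 probe 2 -0.17. At position 4 only Jun was 0.072, Ier2 probes 1 and 2 were -0.24 and -0.39, and Btg2 probes 1 to 3 were -0.42, -0.15 and -0.13. With array weights Egr1 was 0.24, Atf3 0.48, Dusp1 -0.027 and Ier2 probe 2 -0.45, and with the adipocyte score 0.21, 0.49, -0.076 and -0.34. Leaving out each heart gave -0.41 to 0.10 for Fos, -0.32 to 0.28 for Fosb, -0.33 to 0.24 for Egr1, -0.23 to 0.40 for Atf3, -0.068 to 0.20 for Btg2 probe 2 and -0.63 to 0.35 for Ier2 probe 2.

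Of the 9 correlations with Fos, 0 passed in the main setting and 4 under normexp: Fosb 0.85, Jun -0.78, Nr4a1 -0.89 and Dusp1 -0.92. The share of all genes that passed under normexp was not counted, so these 4 cannot be read as particular to the members. Normexp also gave 0.31 for Egr1, 0.34 for Atf3, -0.63 for Junb, -0.41 for Ier2 and -0.18 for Btg2. On the low-range arrays PKR2 4, WT 2 and WT 4 the normexp offset alone gave a level of -1.49, -0.92 and -1.76. Fos stood at -1.18, -0.70 and -1.35 there. On the other arrays the offset alone gave -4.70 to -2.95, and Fos lay at -2.62 to -0.61. Quantile normalization gave 0.22 for Dusp1. Leaving out each heart gave -0.77 to 0.071 for Dusp1, -0.20 to 0.27 for Jun and -0.066 to 0.47 for Junb. No fit paired by replicate number was made, since the labels carry none, and the fixed slide block is the nearest to it.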
